A study of Mus musculus with 6 samples.

Results

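The collagen chain genes encode the protein chains from which collagens are assembled. They were taken as every gene symbol in the count table made of Col, a number, the letter a and a number, with Col10a1 left out. This gave 43 genes of 24062 symbols, in 5 classes: 11 fibrillar, 6 basement membrane, 6 beaded, 9 FACIT (fibril-associated collagens with interrupted triple helices) and 11 others. All 43 had at least 1 count, and 38 passed the filter on low counts and were tested among 13990 genes. Col6a6, Col22a1, Col13a1, Col25a1 and Col26a1 did not pass it.

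RNA was sequenced from mouse embryonic fibroblasts (MEFs), cultured connective tissue cells from the embryos of C57BL/6 mice. Cells that had received p27 by lentivirus (p27OE, 3 libraries) were compared with EV control cells (3 libraries), all at day 10. The labels do not spell out EV, and they do not say which promoter drove p27. The control titles also carry a dataset number that the p27OE titles lack. Any difference it stands for cannot be told apart from that between the groups. The treatment protocol and the p27OE titles call the cells senescent, while the design text calls them non-senescent, so the group names alone are used here. Nor do the labels say whether the libraries came from separate cultures, so a p-value here covers the spread among these libraries alone, which may be partly technical.

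A collagen molecule is a triple helix of chains. The chains are hydroxylated and folded in the endoplasmic reticulum, then exported, trimmed at their ends and cross-linked outside the cell. Fibrillar collagens form the fibres of connective tissue, type IV chains form the sheet of basement membranes, type VI chains form beaded filaments, and FACITs sit on the surface of fibrils. Fibroblasts are the main makers of type I and type III collagen in most connective tissues.

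Library totals ran from 39183624 to 61219345 counts. Cdkn1b, the gene that encodes p27, was at 43.9, 31.5 and 32.3 CPM (a gene's counts scaled to the size of its library with TMM factors) across EV control 1, 2 and 3, against 167, 232 and 337 CPM across p27OE 1, 2 and 3, as the labels have it. The libraries also differed in the summed level of 4 Y-linked genes (Ddx3y, Eif2s3y, Kdm5d and Uty). In the order 1, 2, 3 it came to 0.125, 126 and 124 CPM for the controls, then 1.95, 57.2 and 137 CPM for p27OE. EV control 1 and p27OE 1 were thus low in both groups, p27OE 2 was intermediate, and EV control 2 and 3 were alike. Y-linked genes are carried by male cells alone, so libraries of a group that differ this far cannot be taken as repeats of 1 cell population. The labels do not give the sex of the embryos or say whether embryos were pooled, and the source of the difference was not tested. Each result below is given from the model with the group alone and, where stated, from a second model that adds this level as a term (with the Y-linked term). The low-level difference is p27OE 1 against EV control 1, and the high-level difference is p27OE 3 against the mean of EV control 2 and 3. Of the fibroblast markers 8 of 8 were detected, with a summed level of 5137 to 6873 CPM in the controls and 6113 to 6956 CPM in p27OE, most of it Vim. Endothelial markers summed to 3.54 to 7.86 CPM over all libraries, epithelial markers to 2 to 8.24 CPM and macrophage markers to 6.91 to 37.9 CPM, highest in EV control 1. Bone markers summed to 41.2 to 52.3 CPM, Schwann and neural markers to 83.6 to 102 CPM and skeletal muscle markers to 27.4 to 120 CPM. Pecam1, Cdh5 and Epcam had 8 counts or fewer in every library, and Bglap and Ckm had 0.

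Collagen transcripts made up a large part of the RNA of these cells, and type I and type III chains made up most of that part. The 43 genes held 6.83%, 4.33% and 4.54% of all counts of EV control 1, 2 and 3, against 5.28%, 4.83% and 3.99% of p27OE 1, 2 and 3. EV control 1 was the highest library and p27OE 3 the lowest, and the groups overlapped. Col1a1 alone held 30.4% to 33.6% of the collagen counts. The 3 most counted chains of each library, Col1a1, Col1a2 and either Col3a1 or Col5a2, held 62.6% to 67.6%. Summed over the 43 genes, the level was 52240 ± 12700 CPM over the controls, against 46790 ± 4660 CPM over p27OE (mean ± SD, n = 3 each), a ratio of 0.90. On the log2 scale this ratio was -0.16, and it was 0.06 without EV control 1.

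Per length of transcript, measured as CPM per kilobase of the principal transcript, the levels ran over more than 5 orders of magnitude. Col1a1 was highest, at 2835 ± 560 CPM per kilobase in the controls and 2459 ± 255 in p27OE (SD, n = 3 each). Col1a2 followed at 2165 ± 590 and 1900 ± 246 CPM per kilobase. The ranges of these neighbours overlapped over the 6 libraries, although Col1a1 was the higher in each library. Next came Col3a1, with a mean over all libraries of 901 CPM per kilobase, then Col5a2 at 618 and Col5a1 at 498. The most abundant chains of the other classes were Col6a1 at 273, Col12a1 at 201, Col4a1 at 163 and Col8a1 at 97.7 CPM per kilobase. Col13a1 was lowest, at 0.00795 CPM per kilobase. The length of Col1a2 depends on the transcript chosen, and over all its annotated exons it was 875 CPM per kilobase.

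**Figure D1:**
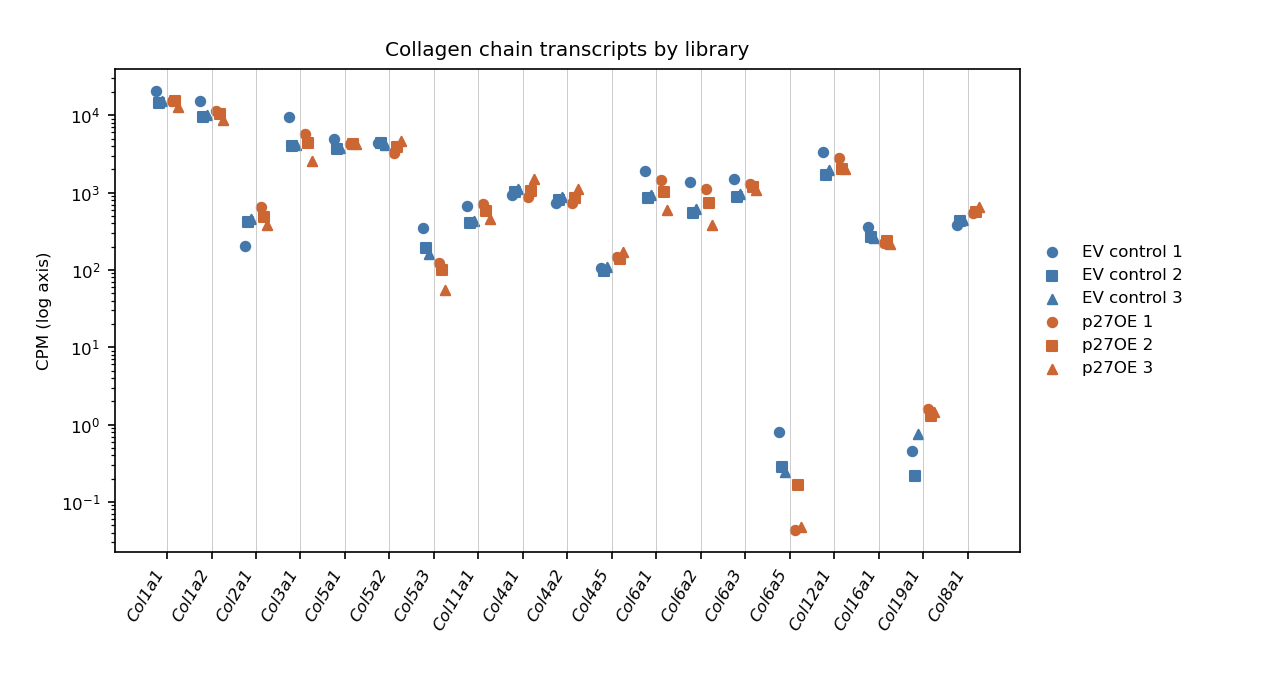
Level of 19 collagen chain genes in each library, as CPM on a log axis, with blue marks for the 3 EV control and orange marks for the 3 p27OE libraries. The marks of Col4a5, Col8a1 and Col19a1 are higher in every p27OE library, and those of Col5a3, Col16a1 and Col6a5 lower. Those of the type I and III chains and of Col6a1, Col6a2 and Col6a3 overlap.

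With the group alone, 1 collagen chain gene passed the test in p27OE cells. Col4a5, a type IV chain of basement membranes, was 1.47-fold higher. No chain passed in the lower direction. Both type I chains, Col3a1 and Col5a2 had lower means in p27OE cells but overlapped with the controls. Of the type IV chains 5 of 6, both type VIII chains and the scarce FACIT chains Col9a2, Col19a1 and Col20a1 had higher means. The call on Col4a5 is 1 of 38 tested members, or 2.63%, where 2.61% of all tested genes were called, 1.77% higher and 0.843% lower (edgeR quasi-likelihood test, adjusted p under 0.05). The share of members is therefore near the background. Of the members, 21 had a log2 fold change above 0 and 17 below, with a median of 0.03, beside 0.01 over all genes. At an unadjusted p under 0.05, 6 members were higher and 3 lower. DESeq2 called 5 higher and 1 lower, and limma-voom called 1 higher and 0 lower. Over all tested genes the unadjusted rule passed 26% (13.1% higher, 12.9% lower), DESeq2 called 16.6% (8.19% higher, 8.41% lower) and limma-voom 3% (2.04% higher, 0.958% lower). The members' 9, 6 and 1 of 38 made up 23.7%, 15.8% and 2.63%, so by each of these rules too they lay near or below the background. Counts by these rules in the classes and lists that follow are read against the same shares.

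With the Y-linked term 21 of the 38 members passed, 9 higher and 12 lower. In that model 34% of all tested genes passed, 18% higher and 16% lower. The members called made up 55.3%. Over the whole table the count of genes called in this model was 4761, against 365 with the group alone, so each call with the term is read beside those shares. When each library was left out in turn in this model, 10 of the 21 calls were kept in all 6 fits: Col3a1, Col5a3, Col11a2, Col27a1, Col4a5, Col6a1, Col6a2, Col16a1, Col8a1 and Col8a2. The other 11 were lost in at least 1 of them: Col1a1, Col1a2, Col4a4, Col6a5, Col9a1, Col9a2, Col19a1, Col20a1, Col15a1, Col18a1 and Col23a1. The groups did not overlap for 5 members that were higher and 4 that were lower, or 23.7% of the members, where 33.3% of all tested genes did not overlap. The low-level and the high-level difference had the same sign in 26 of the 38 members (68.4%), beside 72.2% of all tested genes. These are bulk libraries, so fewer cells making a transcript and less of it in each cell cannot be told apart.

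**Figure D2:**
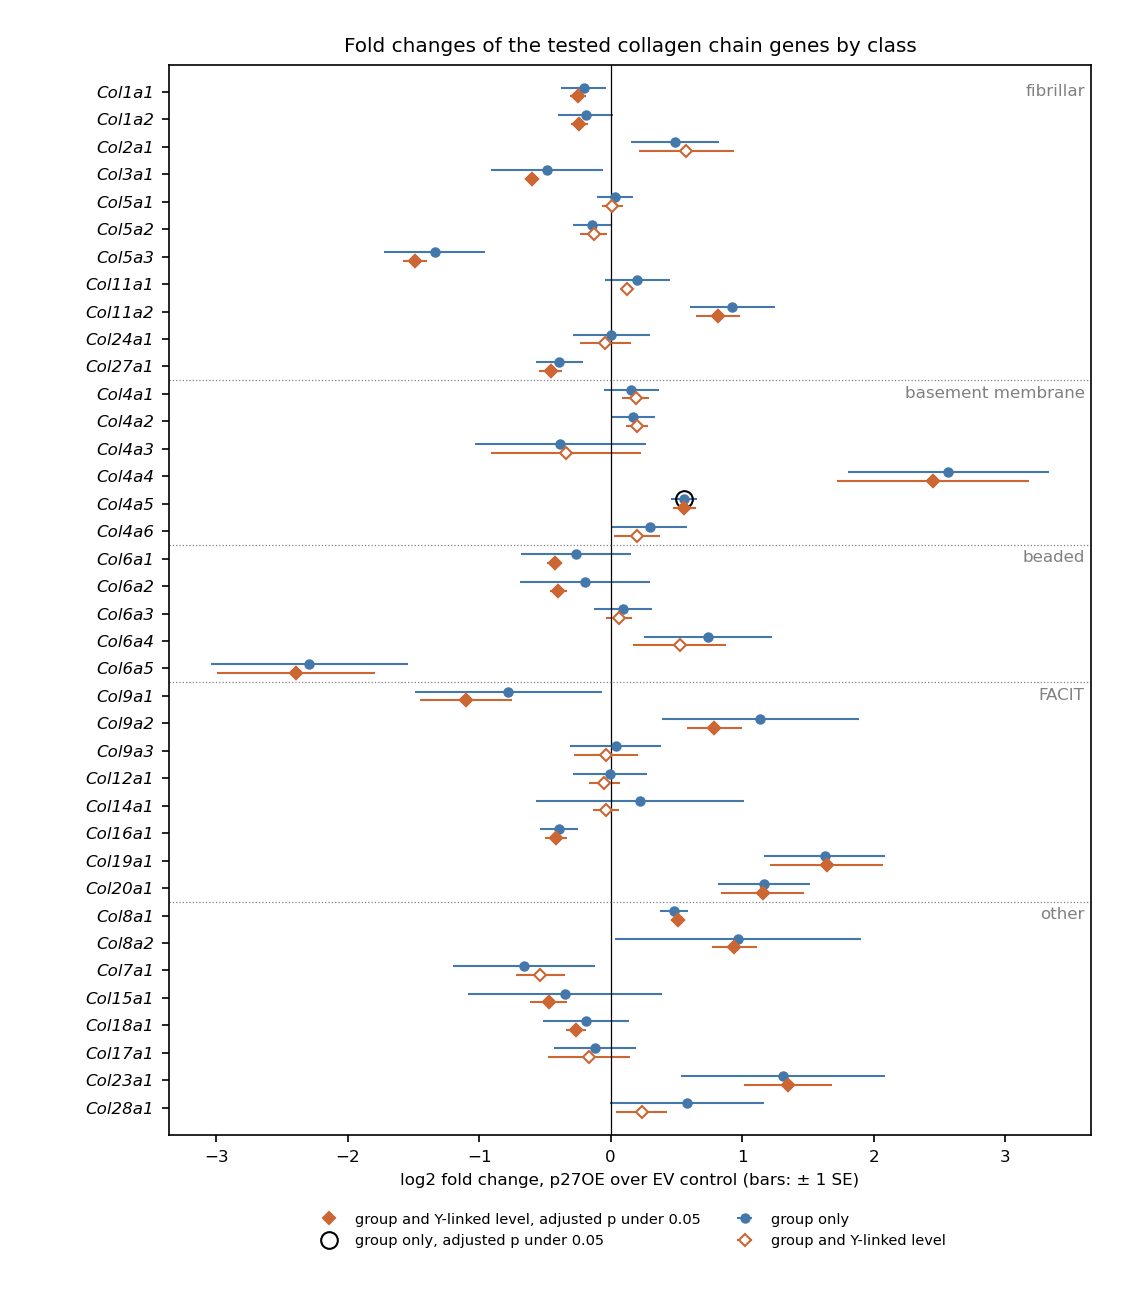
Log2 fold change of p27OE over EV control for the 38 tested collagen chain genes, grouped by class, with bars of 1 SE. Blue circles come from the model with the group alone, in which only Col4a5 passed, and orange diamonds from the model with the Y-linked term, filled for the 21 genes that passed.

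Among the 11 fibrillar chains, 5 had a log2 fold change above 0 and 6 below, with a median of -0.14. None passed with the group alone (edgeR). Before adjustment, at a p under 0.05, 1 was higher and 1 lower, DESeq2 called the same numbers, and limma-voom called 0, beside 26%, 16.6% and 3% of all genes by these rules. With the Y-linked term 1 rose and 5 fell. The summed fibrillar level was 43810 ± 10500 CPM over the controls, against 38260 ± 3970 CPM over p27OE, a ratio of 0.87.

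Col1a1, the major chain of type I collagen (chr11:94936224-94953042, GRCm38), was at 20600, 14410 and 15420 CPM in the control libraries, against 15490, 15410 and 12840 CPM in the p27OE libraries. EV control 1 was the highest library and p27OE 3 the lowest, and the other 4 lay close together. By edgeR the log2 fold change was -0.21 ± 0.17 (SE, adjusted p = 0.492), and -0.25 ± 0.06 with the Y-linked term (adjusted p = 0.0206). The first of these was -0.05 without EV control 1 and -0.12 without p27OE 3. The call with the term was lost without EV control 3 (edgeR adjusted p = 0.0905) and without p27OE 2 (0.0523). Col1a2, its partner chain, was at 15220, 9518 and 10010 CPM in the control libraries, against 11320, 10430 and 8731 CPM in the p27OE libraries. The order of the libraries was again led by EV control 1, and the groups overlapped. Its log2 fold change was -0.19 ± 0.21 (edgeR adjusted p = 0.619), and -0.24 ± 0.07 with the Y-linked term (adjusted p = 0.0281). Without EV control 1 the log2 fold change of Col1a2 by group alone was 0.04. Its call with the term was lost without EV control 3 (edgeR adjusted p = 0.0957), p27OE 1 (0.0524) or p27OE 2 (0.0848).

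Col3a1 encodes type III collagen, which mixes with type I in elastic and loose tissue. It was at 9406, 4026 and 4102 CPM in the control libraries, against 5667, 4330 and 2555 CPM in the p27OE libraries. Both libraries numbered 1 were the highest of their group, and p27OE 3 was the lowest of all. The change on the log2 scale was -0.48 ± 0.43 (edgeR adjusted p = 0.523), and -0.60 ± 0.05 with the Y-linked term (adjusted p = 0.00064). The low-level difference was -0.73 and the high-level difference -0.67. Without EV control 1 the log2 fold change over the group alone was 0.03.

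The type V chains regulate the start and the width of type I fibrils, and the 3 type V genes differed in how they followed the libraries. Col5a1 was at 4967, 3699 and 3751 CPM in the control libraries, against 4250, 4242 and 4192 CPM in the p27OE libraries. The p27OE libraries were nearly equal and lay within the range of the controls. The log2 fold change was 0.03 ± 0.14 (edgeR adjusted p = 0.91). Col5a2 was at 4430, 4341 and 4109 CPM in the control libraries, against 3219, 3858 and 4591 CPM in the p27OE libraries. Here the spread lay in p27OE, from below to above the controls, and the log2 fold change was -0.14 ± 0.14 (edgeR adjusted p = 0.576).

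Col5a3, the third type V chain and the scarcest, had the smallest p of the fibrillar class. It lies at chr9:20770050-20815067 (GRCm38), on the minus strand. It was at 344, 194 and 163 CPM in the control libraries, against 122, 101 and 54.4 CPM in the p27OE libraries. Every p27OE library lay below every control, although EV control 1 and p27OE 3 stood apart within their groups. The fold of p27OE over control was 0.40, and the log2 fold change was -1.34 ± 0.38 (edgeR adjusted p = 0.0933). Given the Y-linked term, it was -1.49 ± 0.09 (adjusted p = 0.000336), with a low-level difference of -1.50 and a high-level difference of -1.70. DESeq2 gave an adjusted p of 0.00282. Col5a3 thus fell in both of these models and did not pass with the group alone in edgeR. The 250 bases before its start site (chr9:20815068-20815317, minus strand, RefSeq, GRCm38.p6) are shown since this was the largest difference among the chains above 1 CPM. Capitals mark CCAAT, a box near many promoters, and GGGCGG, the GC box bound by Sp1-type factors, on either strand. There was 1 match of CCAAT and 2 of GGGCGG:
Col5a3: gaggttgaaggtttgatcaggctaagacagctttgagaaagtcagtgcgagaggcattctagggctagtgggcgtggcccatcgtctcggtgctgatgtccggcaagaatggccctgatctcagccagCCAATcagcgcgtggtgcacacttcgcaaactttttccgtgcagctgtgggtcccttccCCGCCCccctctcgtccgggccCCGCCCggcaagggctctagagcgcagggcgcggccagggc

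The fibrillar chains Col2a1, Col11a1 and Col11a2 had higher means in p27OE, and none passed with the group alone. Col2a1, the type II chain of cartilage, was at 202, 422 and 451 CPM in the control libraries, against 646, 487 and 379 CPM in the p27OE libraries. It was lowest in EV control 1 and highest in p27OE 1, and the groups overlapped. edgeR put the log2 fold change at 0.49 ± 0.34 (adjusted p = 0.406). The low-level difference was 1.68 and the high-level difference -0.20, so the direction differed between the low-level and high-level libraries. Col11a1, which joins type II in cartilage fibrils, was at 675, 408 and 434 CPM in the control libraries, against 719, 571 and 457 CPM in the p27OE libraries. The highest library of each group was the one numbered 1, and the log2 fold change was 0.20 ± 0.25 (edgeR adjusted p = 0.648). It was 0.45 without EV control 1 and 0.01 without p27OE 1. Col11a2, its partner, ranged from 2 to 3.9 CPM over the controls and from 3.65 to 6.38 CPM over p27OE, with overlap. Its log2 fold change was 0.93 ± 0.33 (edgeR adjusted p = 0.139), and with the Y-linked term it rose by 0.82 ± 0.17 (adjusted p = 0.01).

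Cartilage markers also differed between these libraries. Their summed level was 129, 73.7 and 75.6 CPM in the control libraries, against 206, 122 and 65.1 CPM in the p27OE libraries, highest in both libraries numbered 1. Of the 8 markers listed, 7 were in the table and 6 were tested, 3 above 0 and 3 below, and 0 were at 0 in all libraries. Comp, Hapln1 and Sox9 were above 0, and Acan, Matn3 and Chad below. Comp was at 36, 15.4 and 16 CPM in the control libraries, against 112, 50.3 and 27.4 CPM in the p27OE libraries. Acan went from 48.4, 28 and 23.5 CPM to 35.5, 22.5 and 8.72 CPM. Matn1, a defining marker, had 4 counts or fewer in every library. The part of such cells in the values of Col2a1, Col11a1 and Col11a2 was not tested. The last fibrillar chains were Col24a1 (6.2 to 11.1 CPM, log2 fold change 0.01) and Col27a1. Col27a1 was at 40.3, 32.4 and 30.7 CPM in the control libraries, against 29, 29.6 and 20.3 CPM in the p27OE libraries, with no overlap. For this gene the log2 fold change was -0.39 ± 0.18 (edgeR adjusted p = 0.221), and with the Y-linked term it fell by 0.46 ± 0.09 on the log2 scale (adjusted p = 0.00824).

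Of the 6 basement membrane chains, 5 had a log2 fold change above 0, and the median was 0.23. Col4a5 passed with the group alone, and 2 chains, Col4a5 and Col4a4, rose with the Y-linked term. Col4a4 was tested only because its p27OE libraries passed the filter, and its call was kept in 1 of the 6 fits with a library left out. The summed level was 1773, 1912 and 2109 CPM in the control libraries, against 1760, 2033 and 2799 CPM in the p27OE libraries, so that p27OE 3 was set apart and the groups overlapped. The genes lie in head-to-head pairs. Col4a1 and Col4a2 overlap by 22 bases on chromosome 8, Col4a4 and Col4a3 are 71 bases apart on chromosome 1, and Col4a6 and Col4a5 are 1308 bases apart on chromosome X.

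Col4a5 encodes a chain found in the basement membranes of kidney, skin and smooth muscle. It lies at chrX:141475385-141689234 (GRCm38), on the plus strand. It was at 107, 95.5 and 108 CPM in the control libraries, against 149, 138 and 169 CPM in the p27OE libraries. The lowest p27OE library lay above the highest control, and each group was narrow. The mean was 103 ± 6.79 CPM over the controls, against 152 ± 15.5 CPM over p27OE (SD, n = 3 each). In log2 terms the change was 0.56 ± 0.10 (SE; edgeR adjusted p = 0.0485). When the Y-linked term was added, it was 0.56 ± 0.09 (adjusted p = 0.00376). The low-level difference was 0.48 and the high-level difference 0.73, so the X-linked gene was higher in p27OE in both kinds of library. The adjusted p was just under the threshold. It was 0.034 without EV control 1, and no omission of another library left the call standing: the adjusted p was 0.223 without EV control 2, 0.215 without EV control 3, 0.0917 without p27OE 1, 0.172 without p27OE 2 and 0.0845 without p27OE 3. Most other calls of the table were lost too, with 1 or 2 genes called in each of those 5 fits.

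Its neighbour Col4a6, read from the other strand, was scarcer per length, at 0.57 ± 0.12 CPM per kilobase in the controls, beside 15.8 ± 1.04 CPM per kilobase for Col4a5. It was at 4.73, 3.26 and 3.42 CPM in the control libraries, against 6.47, 3.67 and 3.85 CPM in the p27OE libraries. The libraries numbered 1 were the highest of their groups and the groups overlapped, with a log2 fold change of 0.30 ± 0.28 (edgeR adjusted p = 0.557). The upstream stretches of this pair are shown because they precede the starts of the only gene called and of its neighbour. For Col4a5 the 216 bases shown end 35 bases before the start site (chrX:141475169-141475384, plus strand), and for Col4a6 the 250 bases end just before it (chrX:141474077-141474326, minus strand), both from RefSeq, GRCm38.p6. The full window of 250 bases before the Col4a5 start site also holds 1 match of GGGCGG, which is not wholly within the bases shown. In the bases shown, capitals mark CCAAT (1 match, in Col4a5) and GGGCGG (1 match, in Col4a6) on either strand:
Col4a5: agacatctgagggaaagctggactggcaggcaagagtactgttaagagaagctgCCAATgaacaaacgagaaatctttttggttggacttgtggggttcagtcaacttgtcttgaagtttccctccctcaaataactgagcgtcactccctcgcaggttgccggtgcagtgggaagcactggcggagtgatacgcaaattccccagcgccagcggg
Col4a6: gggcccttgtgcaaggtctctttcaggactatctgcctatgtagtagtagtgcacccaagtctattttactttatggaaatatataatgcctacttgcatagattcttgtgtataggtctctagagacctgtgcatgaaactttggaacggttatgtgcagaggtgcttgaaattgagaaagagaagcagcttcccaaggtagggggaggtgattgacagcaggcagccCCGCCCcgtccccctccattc

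Col4a1 and Col4a2 form the common type IV network of nearly all basement membranes. Col4a1 was at 921, 1014 and 1122 CPM in the control libraries, against 867, 1041 and 1501 CPM in the p27OE libraries. p27OE 3 lay well above the range of the controls and p27OE 1 just below it. The log2 fold change was 0.16 ± 0.21 (edgeR adjusted p = 0.678), and it was -0.10 without p27OE 3. Col4a2 was at 740, 799 and 875 CPM in the control libraries, against 737, 850 and 1125 CPM in the p27OE libraries, with the same order of libraries. Its log2 fold change was 0.17 ± 0.17 (edgeR adjusted p = 0.575), and -0.02 without p27OE 3. The low-level differences of the pair were -0.09 and -0.01, and the high-level differences 0.49 and 0.43.

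Col4a3 and Col4a4, the partners of Col4a5 in the kidney filter, were near the limit of detection. Col4a4 had 2, 6 and 0 counts in the controls and 18, 17 and 10 counts in p27OE. No p27OE library was as low as any control. The change on the log2 scale was 2.57 ± 0.77 (edgeR adjusted p = 0.1), and Col4a4 passed the filter on low counts through the p27OE libraries. In the second model it rose by 2.45 ± 0.73 (adjusted p = 0.0367), a call kept only without EV control 2 (highest adjusted p = 0.104). Col4a3 had 16, 34 and 10 counts in the controls and 4, 17 and 20 counts in p27OE, which overlapped, and its log2 fold change was -0.39 ± 0.65 (edgeR adjusted p = 0.75).

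Smooth muscle and pericyte markers had higher means in p27OE beside the type IV chains. Their summed level was 4160 to 7483 CPM in the controls and 5080 to 10452 CPM in p27OE, highest in p27OE 3, the library with the highest Col4a1 and Col4a2. Acta2 made up most of this sum in every library. All 7 of 7 had a log2 fold change above 0, with a median of 0.70, and none was at 0 in all libraries. Acta2, Cnn1, Smtn and Des overlapped between the groups, with log2 fold changes of 0.23, 0.06, 0.06 and 0.79. Myh11 did not overlap, with a log2 fold change of 1.48 ± 0.38 (edgeR adjusted p = 0.0754). Cspg4, the pericyte proteoglycan NG2, rose from 141, 154 and 165 CPM to 230, 229 and 289 CPM, a log2 fold change of 0.70 ± 0.12 (edgeR adjusted p = 0.045). Rgs5, a pericyte marker, rose from 3.58, 3.08 and 4.5 CPM to 11.1, 9.6 and 11.5 CPM, a log2 fold change of 1.53 ± 0.18 (edgeR adjusted p = 0.0303). Both calls were kept without EV control 1 and lost in the other 5 fits with a library left out (edgeR adjusted p from 0.0715 to 0.215 for Cspg4 and from 0.0707 to 0.183 for Rgs5). The part of such cells in the values of the type IV chains and of Col8a1 was not tested.

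Of the 6 beaded filament chains 5 were tested, 2 above 0 and 3 below, with a median log2 fold change of -0.20. None passed with the group alone (edgeR); at an unadjusted p under 0.05, 0 were higher and 1 lower, and DESeq2 and limma-voom called 0. With the Y-linked term 0 rose and 3 fell: Col6a1, Col6a2 and Col6a5. Col6a5 was tested only because its control libraries passed the filter, and its call was kept in 2 of the 6 fits with a library left out. The summed level was 4783, 2270 and 2506 CPM in the control libraries, against 3854, 2935 and 2059 CPM in the p27OE libraries. Both libraries numbered 1 were the highest of their group, and the groups overlapped.

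Col6a1 and Col6a2, the short chains of type VI collagen, followed each other through the libraries. Col6a1 was at 1884, 850 and 938 CPM in the control libraries, against 1443, 1023 and 590 CPM in the p27OE libraries. Col6a2 was at 1381, 549 and 621 CPM in the control libraries, against 1125, 728 and 377 CPM in the p27OE libraries. In both genes p27OE 3 was the lowest library, EV control 1 the highest, and the groups overlapped. The fitted log2 fold change was -0.26 ± 0.42 for Col6a1 (edgeR adjusted p = 0.731) and -0.19 ± 0.49 for Col6a2 (adjusted p = 0.838). Given the Y-linked term, Col6a1 fell by 0.43 ± 0.05 (adjusted p = 0.00216) and Col6a2 fell by 0.40 ± 0.07 (adjusted p = 0.00498). With the group alone the sign turned without EV control 1, to 0.18 and 0.33, and without p27OE 3, to 0.01 and 0.12.

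Col6a3, the long chain that completes the type VI molecule, did not share this pattern in p27OE. It was at 1516, 871 and 946 CPM in the control libraries, against 1285, 1183 and 1092 CPM in the p27OE libraries. The p27OE libraries lay close together between EV control 1 and the other controls. The log2 fold change was 0.10 ± 0.22 (edgeR adjusted p = 0.82), and 0.07 with the Y-linked term (adjusted p = 0.642). Of the chains that can take its place, Col6a5 had 32, 17 and 11 counts in the controls and 2, 8 and 2 counts in p27OE. All p27OE libraries were lower, at counts near the detection limit, and it passed the filter through the controls. In log2 terms the change was -2.29 ± 0.75 (edgeR adjusted p = 0.121), and with the Y-linked term it fell by 2.39 ± 0.60 (adjusted p = 0.021), and the adjusted p reached 0.189 with a library left out. Col6a4 (0.35 to 1.41 CPM) had a log2 fold change of 0.74 ± 0.49 (edgeR adjusted p = 0.389), and Col6a6 (0.08 to 0.85 CPM) was not tested.

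Of the 9 FACIT genes 8 were tested, 5 above 0 and 3 below, with a median log2 fold change of 0.13. None passed with the group alone (edgeR). At an unadjusted p under 0.05, 2 were higher and 1 lower, DESeq2 called 2 higher and 0 lower, and limma-voom called 0, where 26%, 16.6% and 3% of all genes passed. When the Y-linked term was added, 3 rose and 2 fell, and of these calls only that on Col16a1 was kept in each fit with a library left out. The class is dominated by Col12a1, which coats type I fibrils in dense tissue. It was at 3312, 1693 and 1941 CPM in the control libraries, against 2837, 2037 and 2047 CPM in the p27OE libraries. The libraries numbered 1 were highest, and the log2 fold change was -0.01 ± 0.28 (edgeR adjusted p = 0.992), with its sign turning in several of the alternative fits.

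Col16a1, a FACIT of skin and cartilage, was lower in every p27OE library. It was at 361, 266 and 256 CPM in the control libraries, against 226, 233 and 214 CPM in the p27OE libraries. The p27OE libraries were narrow, and EV control 1 stood above the other controls. This gave a log2 fold change of -0.39 ± 0.14 (edgeR adjusted p = 0.151), and with the Y-linked term it fell by 0.42 ± 0.08 (adjusted p = 0.00894). The low-level difference was -0.68 and the high-level difference -0.28.

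Col19a1, a scarce FACIT of basement membrane zones, was higher in every p27OE library. It had 18, 13 and 34 counts in the controls and 73, 63 and 61 counts in p27OE. The highest control lay well below the lowest p27OE library. The fold was 3.09, and the log2 fold change 1.63 ± 0.46 (edgeR adjusted p = 0.0901). In the second model it rose by 1.64 ± 0.43 (adjusted p = 0.0235), with a low-level difference of 1.72 and a high-level difference of 1.74. That call was lost without p27OE 1 (edgeR adjusted p = 0.0588), p27OE 2 (0.0655) or p27OE 3 (0.0574). DESeq2 gave an adjusted p of 0.015. Col20a1 was likewise higher without overlap, at 41, 30 and 40 counts in the controls and 70, 109 and 67 counts in p27OE. For this gene the log2 fold change was 1.17 ± 0.35 (edgeR adjusted p = 0.101).

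The type IX chains, which decorate cartilage fibrils, did not share a direction. Col9a1 (0.14 to 1.2 CPM) had a log2 fold change of -0.78 ± 0.71 and Col9a2 (0.88 to 7.06 CPM) of 1.14 ± 0.75, with edgeR adjusted p = 0.538 and 0.389. Col9a2 was at 3.33, 0.88 and 1.19 CPM in the control libraries, against 7.06, 3.53 and 1.18 CPM in the p27OE libraries, highest in p27OE 1, which also had the highest sum of cartilage markers. With the Y-linked term Col9a1 fell by 1.10 ± 0.35 (adjusted p = 0.045) and Col9a2 rose by 0.79 ± 0.21 (adjusted p = 0.0238). These calls were kept in 1 and 2 of the 6 fits with a library left out, with adjusted p up to 0.139 and 0.211. Col9a3 (0.73 to 1.33 CPM) had a log2 fold change of 0.04 (edgeR adjusted p = 0.958), and 6.07% of its exon bases lie under exons of Tcfl5 on the other strand, whose reads cannot be told apart without a stated strand setting. Col14a1, a FACIT of tendon and skin, was at 38.3, 7.97 and 9.81 CPM in the control libraries, against 40.2, 17.7 and 7.47 CPM in the p27OE libraries. It was high in the libraries numbered 1 and its log2 fold change was 0.22 ± 0.79 (edgeR adjusted p = 0.886). Col22a1 had 2 to 23 counts and was not tested.

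The remaining 11 genes hold the short-chain, anchoring fibril, multiplexin and membrane-spanning collagens, with Col26a1 and Col28a1, which are placed in none of these. Their summed level was the only class sum whose groups did not overlap, at 710, 664 and 651 CPM in the control libraries, against 841, 797 and 848 CPM in the p27OE libraries. The means were 675 ± 31.1 and 829 ± 27.4 CPM (SD, n = 3 each), a ratio of 1.23, and most of this level was Col8a1. Of the 8 tested, 4 were above 0 and 4 below, and none passed with the group alone (edgeR). Before adjustment, at a p under 0.05, only Col8a1 was higher and 0 were lower, DESeq2 called Col8a1, and limma-voom called 0. Given the Y-linked term, 3 rose and 2 fell.

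Col8a1 encodes a short-chain network collagen of vessel walls and of the cornea's inner membrane. It lies at chr16:57624258-57754737 (GRCm38), on the minus strand. It was at 380, 431 and 439 CPM in the control libraries, against 537, 559 and 647 CPM in the p27OE libraries. The groups were well apart, and in both groups the library numbered 1 was the lowest. The mean was 417 ± 32.1 CPM over the controls, against 581 ± 58.3 CPM over p27OE (SD, n = 3 each), a fold of 1.39. The log2 fold change was 0.48 ± 0.11 (edgeR adjusted p = 0.0643), which just missed the threshold. With total-count scaling the adjusted p was 0.0477, with DESeq2 0.00176 and with the Y-linked term 0.000765, the last at a log2 fold change of 0.51 ± 0.05. The low-level difference was 0.50 and the high-level difference 0.57. The 250 bases before its start site (chr16:57754738-57754987, minus strand, RefSeq, GRCm38.p6) are shown because it was the abundant chain closest to Col4a5 in size and p. They hold 4 matches of GGGCGG in capitals, on either strand:
Col8a1: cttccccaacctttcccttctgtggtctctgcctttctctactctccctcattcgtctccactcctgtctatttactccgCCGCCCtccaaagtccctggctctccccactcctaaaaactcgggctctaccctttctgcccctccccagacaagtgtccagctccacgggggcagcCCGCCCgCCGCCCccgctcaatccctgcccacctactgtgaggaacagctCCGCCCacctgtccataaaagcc

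Its partner Col8a2 was more variable, at 93.5, 11.2 and 15.3 CPM in the control libraries, against 144, 61.4 and 28.7 CPM in the p27OE libraries. Both libraries numbered 1 were the highest of their group, the reverse of Col8a1. The fitted log2 fold change was 0.97 ± 0.94 (edgeR adjusted p = 0.561), and with the Y-linked term Col8a2 rose by 0.94 ± 0.17 (adjusted p = 0.00689). Col7a1, the anchoring fibril chain that ties epidermis to dermis, was at 57.9, 141 and 121 CPM in the control libraries, against 26.2, 69.9 and 107 CPM in the p27OE libraries. It was lowest in the libraries numbered 1, with a log2 fold change of -0.66 ± 0.54 (edgeR adjusted p = 0.488).

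The multiplexins Col15a1 and Col18a1, which carry the antiangiogenic fragments restin and endostatin at their ends, had lower means. Col15a1 was at 34.5, 7.11 and 8.45 CPM in the control libraries, against 19.5, 14.7 and 4.95 CPM in the p27OE libraries, with overlap. With the group alone its log2 fold change was -0.35 ± 0.74 (edgeR adjusted p = 0.803), and it ran from -0.77 to 0.74 with a library left out. Col18a1 was at 129, 67.1 and 60.8 CPM in the control libraries, against 92, 78.9 and 54.7 CPM in the p27OE libraries, with overlap. By group alone its log2 fold change was -0.19 ± 0.33 (edgeR adjusted p = 0.761), from -0.38 to 0.22 with a library left out. When the Y-linked term was added, Col15a1 fell by 0.47 ± 0.14 (edgeR adjusted p = 0.0375) and Col18a1 fell by 0.26 ± 0.08 (adjusted p = 0.0374). The call on Col15a1 was kept in 1 and that on Col18a1 in 2 of the 6 fits with a library left out. Of the membrane-spanning chains, Col23a1 was at 2.28, 0.40 and 0.37 CPM in the control libraries, against 3.81, 2.01 and 1.63 CPM in the p27OE libraries. It overlapped through EV control 1, and its log2 fold change was 1.31 ± 0.78 (edgeR adjusted p = 0.339), or 1.35 ± 0.33 with the Y-linked term (adjusted p = 0.0195), a call kept in 4 of those 6 fits. Without EV control 1 and by group alone it was 1 of 2 members called, with Col4a5. Col17a1 (0.53 to 0.91 CPM) did not pass in either model, nor did Col28a1 (3.65 to 17.2 CPM), which is not a membrane-spanning chain. Col13a1 and Col25a1, which span the membrane, and Col26a1, which does not, had 0 to 29 counts in each library and were not tested.

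Partner chains of a type are assembled together, so their count ratio was compared in each library. For Col1a1 to Col1a2 it was 1.35, 1.51 and 1.54 in the controls and 1.37, 1.48 and 1.47 in p27OE. The means of 1.47 ± 0.10 and 1.44 ± 0.06 (SD, n = 3 each) differed by less than the spread. For Col4a1 to Col4a2 the ratio was 1.24, 1.27 and 1.28 in the controls and 1.18, 1.22 and 1.33 in p27OE. For Col6a1 to Col6a2 it was 1.36, 1.55 and 1.51 in the controls and 1.28, 1.41 and 1.56 in p27OE. These pairs kept a narrow range over all 6 libraries although the levels of Col6a1 and Col6a2 varied more than 3-fold.

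The other 3 ratios varied more. Col6a3 to Col6a1 was 0.81, 1.02 and 1.01 in the controls and 0.89, 1.16 and 1.85 in p27OE, highest in p27OE 3. Col3a1 and Col1a1 belong to different types and are not partner chains. Their ratio was 0.46, 0.28 and 0.27 in the controls and 0.37, 0.28 and 0.20 in p27OE, highest in the libraries numbered 1. Col5a1 to Col5a2 was 1.12, 0.85 and 0.91 in the controls and 1.32, 1.10 and 0.91 in p27OE. The groups overlapped in all 6 ratios. Two-sided exact permutation tests gave p from 0.4 to 0.7, and 0.7 for each after adjustment over the 6 ratios, where 0.1 is the smallest that 3 against 3 can give.

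**Figure D3:**
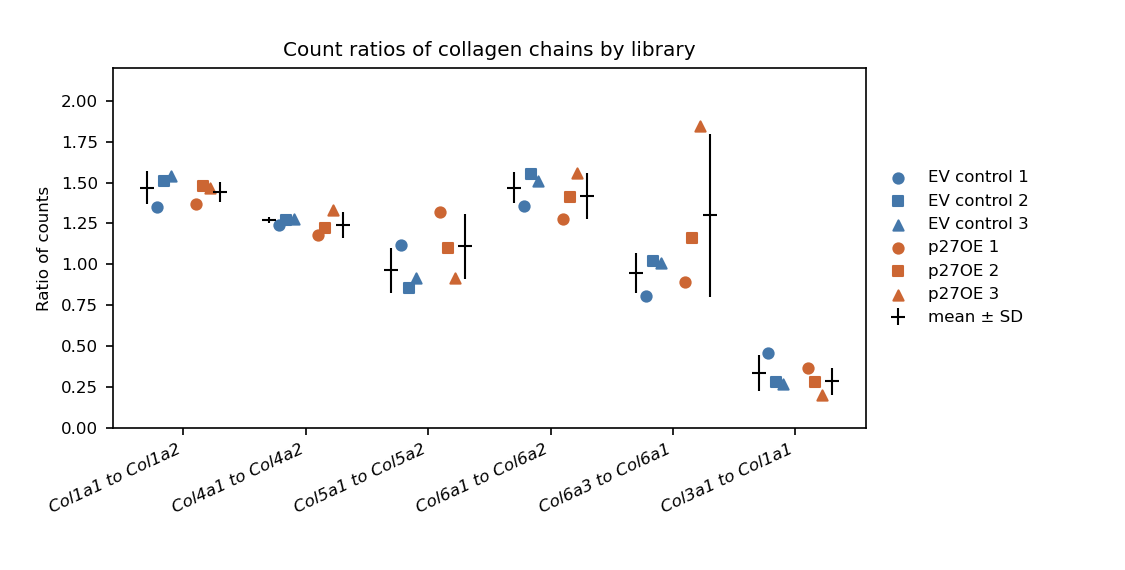
Count ratio of 6 pairs of collagen chains in each library, on a linear axis from 0, with blue marks for EV control, orange marks for p27OE and black bars for the mean ± SD (n = 3). The groups overlap in every pair, and the widest spread is in Col6a3 to Col6a1, where p27OE 3 reaches 1.85.

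Much of the spread of the family lay between libraries of the same group. EV control 1 was the highest control in 28 of the 38 tested members (73.7%; 45.3% of all tested genes), and p27OE 1 the highest p27OE library in 26 (68.4%; 40.3%). Both held in 22 members (57.9%; 28% of all genes). These included both type I chains, Col3a1, Col6a1, Col6a2, Col6a3, Col12a1, Col14a1 and Col8a2. Col4a1, Col4a2, Col8a1 and Col7a1 were lowest in both, or 10.5% of the members, beside 27.2% of all genes. By class, EV control 1 was the highest control in 10 of 11 fibrillar, 5 of 5 beaded and 7 of 8 FACIT chains, and in 1 of 6 basement membrane chains. The members share libraries and are not independent of each other, so these shares are descriptions. Macrophage markers were also highest in EV control 1, with 0 of 7 above 0 and a summed level of 6.91 to 37.9 CPM in the controls and 7.51 to 10.6 CPM in p27OE. The fibroblast markers did not share an order of libraries. Vim and Thy1 were lowest in the library numbered 1 of each group. S100a4 was lowest in EV control 1 and highest in p27OE 1 within their groups. Pdgfra, Pdgfrb and Fap were highest in the library numbered 1 of each group. So were Dcn and Lum, fibroblast matrix proteoglycans named after their values were seen. Dcn was at 76.1, 11.2 and 8.28 CPM in the control libraries, against 92.7, 25.2 and 8.44 CPM in the p27OE libraries. Lum was at 77.6, 10.2 and 8.71 CPM in the control libraries, against 85.4, 24.8 and 4.18 CPM in the p27OE libraries. The part of either in the collagen values of those libraries was not tested.

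**Figure D4:**
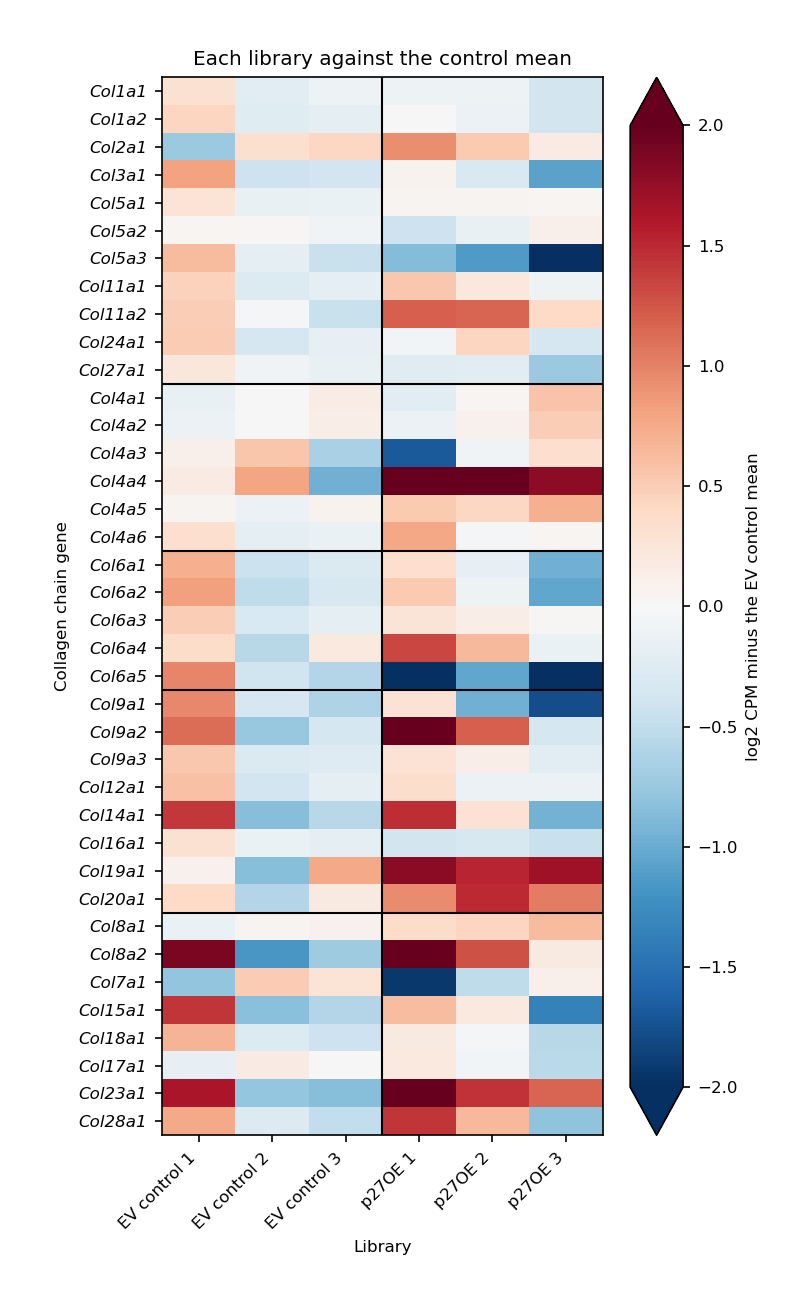
Log2 CPM of each tested collagen chain gene in each library minus the mean of the EV control libraries, with red for higher and blue for lower and black lines between classes. The column of EV control 1 is mostly red, with blue in Col4a1, Col4a2, Col2a1, Col8a1, Col7a1 and Col17a1, while the row of Col4a5 is red in all 3 p27OE libraries.

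Promoter windows were found for 34 of the 43 genes in RefSeq (GRCm38.p6). Col5a2, Col4a3, Col1a1, Col14a1, Col22a1, Col2a1, Col9a3, Col26a1 and Col12a1 had no entry. In the 250 bases before the start site, read on both strands, GGGCGG was found in 21 of the 34 (61.8%), against 32.9% of 27025 promoters. CCAAT was found in 12 (35.3%, against 34.5%), and TATAAA, the TATA box, in 4 (11.8%, against 13%). The genes with TATAAA were Col3a1, Col11a2, Col13a1 and Col17a1. A match describes the letters of the window and not a bound site.

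Among the pathway lists, only the enzymes and chaperones that prepare collagen chains held a gene that passed with the group alone, and most of these enzymes were lower in mean in p27OE cells. Of 18 genes for folding and modification in the endoplasmic reticulum, 17 were tested, 6 above 0 and 11 below, with a median log2 fold change of -0.16. Their summed level was 9186, 9664 and 9486 CPM in the control libraries, against 7541, 7983 and 8243 CPM in the p27OE libraries, with no overlap. Fkbp14, a prolyl isomerase of the endoplasmic reticulum that binds collagen, rose with the group alone. It went from 74.1, 67.9 and 68.9 CPM in the control libraries to 107, 99.2 and 110 CPM in the p27OE libraries, a log2 fold change of 0.58 ± 0.07 (edgeR adjusted p = 0.0303). It was the only member called, and at an unadjusted p under 0.05, 3 were higher and 6 lower. DESeq2 called 3 higher and 5 lower, beside 26% and 16.6% of all genes by these rules. The call on Fkbp14 was kept without EV control 1 and lost in the other 5 fits with a library left out (edgeR adjusted p from 0.0707 to 0.189). In the second model 3 rose (Fkbp14, Leprel1 and Leprel4) and 8 fell.

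The 8 that fell with that term were P4ha1, P4ha2, P4hb, Plod1, Plod3, Ppib, Glt25d1 and Serpinh1, and 4 of them are given here, chosen after their values were seen. Of these 11 calls, those on P4ha1, P4ha2, P4hb, Plod1, Serpinh1, Fkbp14 and Leprel4 were kept in all 6 fits of that model with a library left out. P4ha1, a prolyl hydroxylase subunit, was at 573, 637 and 578 CPM in the control libraries, against 332, 423 and 462 CPM in the p27OE libraries. Its log2 fold change was -0.56 ± 0.14 (edgeR adjusted p = 0.0713), and that of P4ha2 was -0.52 ± 0.10 (adjusted p = 0.0532). Plod1, a lysyl hydroxylase, was at 272, 232 and 207 CPM in the control libraries, against 158, 172 and 167 CPM in the p27OE libraries, a log2 fold change of -0.52 ± 0.11 (edgeR adjusted p = 0.0641). Serpinh1, the collagen chaperone Hsp47, was at 3501, 3347 and 3384 CPM in the control libraries, against 2778, 2718 and 2557 CPM in the p27OE libraries, a log2 fold change of -0.35 ± 0.09 (edgeR adjusted p = 0.0719). In each of these genes the groups did not overlap, and none passed with the group alone.

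No member of the other pathway lists passed with the group alone in edgeR. Of the receptors 8 were tested, 7 above 0, with a median of 0.19, and Itga1, Itga2 and Ddr1 rose with the Y-linked term. Ddr1, a collagen-binding tyrosine kinase, was at 104, 116 and 127 CPM in the control libraries, against 179, 162 and 157 CPM in the p27OE libraries, with no overlap. For this gene the log2 fold change was 0.52 ± 0.10 (edgeR adjusted p = 0.0518). At an unadjusted p under 0.05, 3 receptors were higher and 0 lower, DESeq2 called 2 higher, and limma-voom called 1 higher, beside 26%, 16.6% and 3% of all genes.

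Of the propeptide cleavage genes 7 were tested, 2 above 0 and 5 below, with a median of -0.19. Pcolce, which speeds the trimming of procollagen ends, was at 698, 669 and 672 CPM in the control libraries, against 561, 530 and 475 CPM in the p27OE libraries. The groups did not overlap, and the log2 fold change was -0.38 ± 0.09 (edgeR adjusted p = 0.0683). Pcolce and Adamts2, the procollagen N-proteinase, fell with the Y-linked term. Before adjustment, at a p under 0.05, 0 were higher and 1 lower, DESeq2 called 1 lower, and limma-voom called 0.

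Of the breakdown genes 8 were tested, 5 above 0 and 3 below, with a median of 0.06. Mmp9, a gelatinase, was at 0.88, 2.18 and 1.41 CPM in the control libraries, against 0.50, 0.68 and 0.53 CPM in the p27OE libraries, a log2 fold change of -1.39 ± 0.40 (edgeR adjusted p = 0.0922). At an unadjusted p under 0.05, 0 were higher and 1 lower, and DESeq2 called 1 lower. Mmp9 and Prep fell with the Y-linked term. Of the regulators of collagen genes 12 were tested, 7 above 0 and 5 below, with a median of 0.15. Sox6, a cartilage transcription factor, had the smallest p, at 8.65, 3.44 and 4.9 CPM in the control libraries, against 17.6, 11.3 and 6.2 CPM in the p27OE libraries, with overlap. Its log2 fold change was 1.05 ± 0.47 (edgeR adjusted p = 0.217). Given the Y-linked term, Sox6, Ctgf and Mkl1 rose, and Creb3l1 and Tgfb1 fell.

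Of the export genes 9 were tested, 6 above 0 and 3 below, with a median of 0.04. Trappc2 had the smallest p, with a log2 fold change of 0.35 ± 0.20 (edgeR adjusted p = 0.332), and rose with the Y-linked term. All 5 lysyl oxidases were tested, 2 above 0 and 3 below, with a median of -0.02. Loxl1, which cross-links elastic and collagen fibres, had the smallest p, with a log2 fold change of -0.16 ± 0.09 (edgeR adjusted p = 0.338), and Loxl3 rose with the Y-linked term. Among the export, lysyl oxidase and regulator genes 0 passed at an unadjusted p under 0.05, and DESeq2 and limma-voom called 0. Of the calls with the Y-linked term in the lists after the folding genes, those on Itga1, Ddr1, Pcolce, Sox6, Ctgf and Creb3l1 were kept in all 6 fits with a library left out, and those on Itga2, Adamts2, Mmp9, Prep, Mkl1, Tgfb1, Trappc2 and Loxl3 were not.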

How the data were processed

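Per the labels' protocols, RNA was isolated on RNeasy Micro columns and the 6 libraries, 3 per group, were prepared by the TruSeq RNA v2 method. The deposited table holds read counts per gene symbol, whole numbers not normalised by the authors. The submitters' processing notes list mm10 and the tools Subread, featureCounts 1.4.6, Bowtie2 2.2.6 and TopHat2 2.0.14. Annotation, strand setting and filters of the counting step are not given in the sources used here.

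Counts were filtered with edgeR's filterByExpr (minimum count 10), scaled by TMM and tested with edgeR 4.0.16 (robust glmQLFit, two-sided glmQLFTest) under R 4.3.3, by group alone. The Benjamini-Hochberg adjustment ran over all 13990 tested genes, and genes were called at an adjusted p under 0.05. CPM was computed with the same TMM factors, and each standard error comes from the fit of its fold change. A prior count of 2 was added for the low-level and high-level differences and the deviations plotted. The Y-linked term is each library's summed Y-linked CPM as a share of the highest.

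The members, pathway and marker lists and the Y-linked term were chosen with earlier results of these data known. Values in every library are given for members called, members with a mean of at least 100 CPM and, per class, the tested member with the smallest p; others named by library were chosen after their values were seen. From each pathway list come the members called or else the member with the smallest p. All 43 members matched GENCODE M21 (GRCm38, the assembly of mm10) by symbol, which gave coordinates and the length of the principal transcript. The upstream stretch of Col4a5 was shortened to leave out annotated exons.

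Alternatives were 3 other scalings (total counts, RLE, upper quartile), no filter, a filter of 1 CPM in 3 libraries, DESeq2 1.42.0, limma-voom (limma 3.58.1), the replicate number as a block, the Y-linked term, and fits without each single library or without both libraries numbered 1. The fits were tested on simulated data, each with the spread of its own model and with no Y-linked difference put in. Changes were put only into genes with a mean above 4 CPM, so the shares called do not cover scarcer chains such as Col4a4, Col6a5 and Col19a1. By group alone 11.9% of 1.5-fold, 68.7% of 2-fold and 97% of 4-fold changes were called. With the Y-linked term the shares were 86.6%, 95.5% and 98.5%. False calls were 8 of 126 and 16 of 203. Changes near 1.5-fold in genes above that level were thus mostly missed by group alone.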

Additional observations from a re-analysis of the deposited data

How the results depend on the processing

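Of all genes tested, 365 were called, against 2321 with DESeq2, 2410 with the replicate block, 4761 with the Y-linked term, 2334 without both libraries numbered 1, and 1 to 1827 when a single library was left out. Of the collagen members, 1 was called (1 higher, 0 lower); total-count scaling called 2 (2 higher), DESeq2 6 (5 higher, 1 lower), the replicate block 9 (6 higher, 3 lower), the Y-linked term 21 (9 higher, 12 lower), and the fit without both libraries numbered 1 called 4 (4 higher). Leaving out a single library gave 0 to 2 (0 to 2 higher, 0 lower). With the Y-linked term and a library left out, the genes called numbered 6257, 2372 and 2137 without EV control 1, 2 and 3 and 4035, 2971 and 4024 without p27OE 1, 2 and 3. The members called were then 21, 14, 13, 15, 14 and 20 in the same order, of which 12, 6, 6, 6, 5 and 8 were higher and 9, 8, 7, 9, 9 and 12 lower. Col4a5 kept its call in each alternative but 5 of the fits by group alone with a library left out. The log2 ratio of the summed level was -0.27 to 0.06 when a library was left out. The log2 fold change of Col12a1 turned to 0.03 with limma-voom, 0.04 with the replicate block and 0.15 without both libraries numbered 1, and that of Col2a1 to -0.03 in the last. The causes of these changes were not tested.

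With a single library left out, the log2 difference of the ratio ran from -0.09 to 0.01 for Col1a1 to Col1a2, -0.08 to 0.01 for Col4a1 to Col4a2, 0.07 to 0.33 for Col5a1 to Col5a2, -0.13 to 0.01 for Col6a1 to Col6a2, 0.11 to 0.64 for Col6a3 to Col6a1 and -0.45 to 0.01 for Col3a1 to Col1a1. Log2 fold changes whose sign turned in such fits ran from -0.31 to 0.04 for Col1a2, -0.78 to 0.03 for Col3a1, -0.04 to 0.17 for Col5a1, -0.10 to 0.30 for Col4a1, -0.02 to 0.28 for Col4a2, -0.62 to 0.18 for Col6a1, -0.64 to 0.33 for Col6a2, -0.05 to 0.37 for Col6a3 and -0.20 to 0.33 for Col12a1. With the Y-linked term they turned to -0.19, 0.07 and 0.11 for Col2a1, Col5a2 and Col12a1 without EV control 1, -0.03 and -0.01 for Col5a1 and Col6a3 without EV control 2, -0.02 for Col5a1 without EV control 3, 0.03 for Col12a1 without p27OE 2, and -0.10 for both Col5a1 and Col6a3 without p27OE 3.

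Deviations from the group means correlated at 0.67 for number 1, 0.04 for number 2 and 0.50 for number 3. EV control 1 correlated best with p27OE 1, while EV control 2 and 3 both correlated best with p27OE 3, at 0.56 and 0.50. With 3 libraries per group these values cannot settle whether the replicate numbers pair the libraries. The scaling moved the median log2 fold change of all genes from 0.00 to 0.02, and the share of higher calls from 65.9% to 76%. Chains with few counts, such as Col4a4, Col6a5 and Col19a1, are limited by counting error.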
